A study of Mus musculus with 6 samples.

Results

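The Hippo pathway genes described here are the co-activators Yap1 and Wwtr1 (TAZ), the kinases Lats1 and Lats2, the transcription factors Tead1 and Tead3, the tumour suppressor Nf2 (merlin) and the angiomotins Amot, Amotl1 and Amotl2. They were listed by name as pathway genes, with earlier results of these data known, and all 10 were among the 19938 genes measured. The brightest probe set with a single gene symbol stood for each. RNA came from an immortalized line of mouse podocytes, grown at 33 °C with gamma-interferon and switched to 37 °C without it to differentiate. One group was 3 arrays of total input RNA and the other 3 arrays of RNA that an antibody against Staufen2 brought down from cytoplasmic lysate of the same kind of cells at 150 mM KCl. From either source 100 ng of RNA was labelled, so a difference is one of composition, whatever the yield of the pulldown. Without a control-antibody pulldown among the arrays analysed here, recovery with Staufen2 is described relative to the input and specific binding is not measured.

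The Hippo pathway is a kinase relay that limits growth and responds to cell contact and to mechanical tension. MST kinases with their partner SAV activate LATS kinases, which phosphorylate YAP and TAZ and so keep them out of the nucleus. Unphosphorylated YAP and TAZ bind TEAD factors at target genes, while merlin and the angiomotins restrain them from the cell cortex. In podocytes, the epithelial cells of the glomerular filter, YAP is known as a survival factor. Staufen2 binds double-stranded stretches of RNA and is known for carrying mRNAs in neurons.

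All 10 genes were higher in the pulldown than in the input, at log2 differences from 0.31 to 1.01. The kinase Lats2 and the angiomotin Amotl1 had the largest differences and Yap1 the smallest. All 10 passed limma's moderated test across all genes at a Benjamini-Hochberg adjusted p under 0.05, and in each of them the pulldown arrays were all above the input arrays. Among all genes 48.7% passed, 31.3% as higher and 17.3% as lower, and 55.9% had groups that did not overlap. Among genes brighter than the median probe set, where all 10 lie, 46.0% were higher and 26.8% lower. The median difference was 0.57 over the 10 genes and 0.04 over all genes, dim ones included. After cyclic loess scaling the 10 genes stayed higher, with a median of 0.47, while the higher share of all calls fell from 64.4% to 52.9%.

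**Figure D1:**
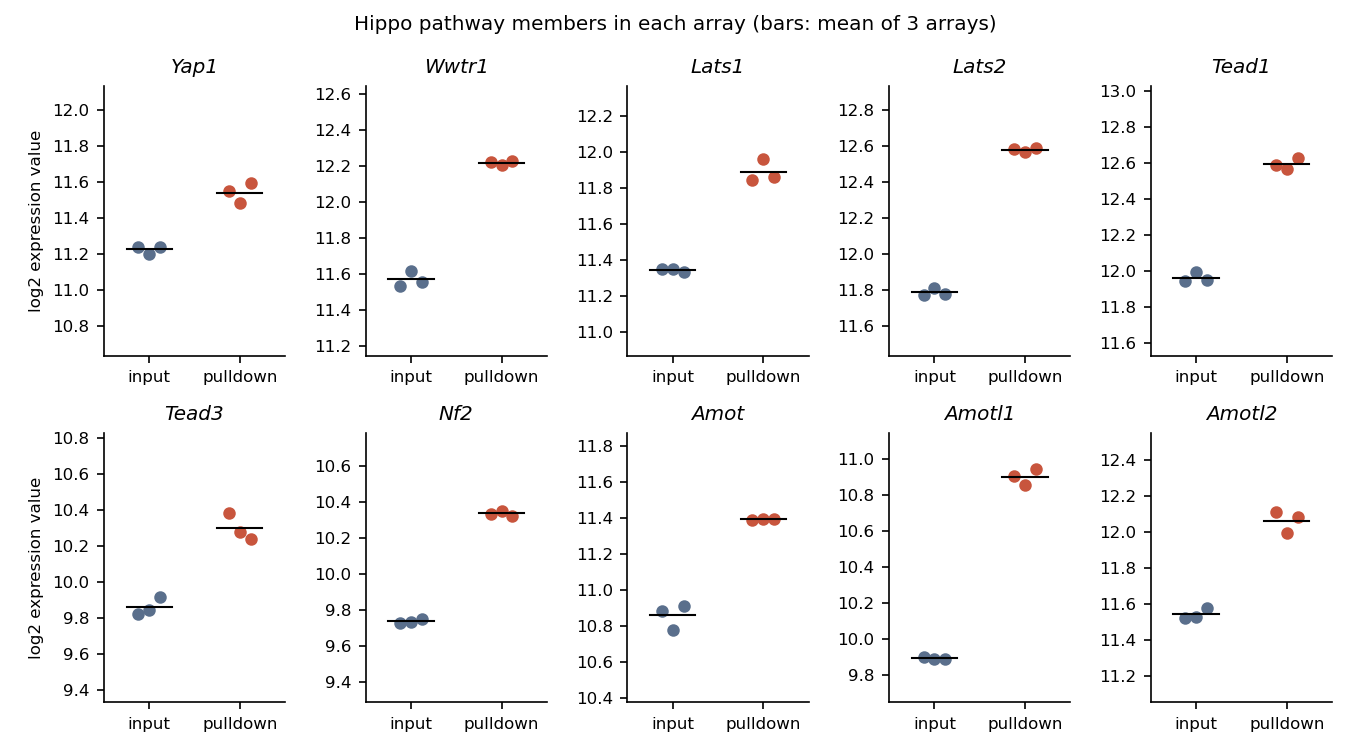
Log2 expression value of each gene in each of the 6 arrays (y axis, with its own offset and the same height in every panel), for 3 input and 3 pulldown arrays (x axis). Points are arrays and bars the mean of 3. In every panel the 3 pulldown points lie above the 3 input points, with the widest gap for Amotl1.

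The co-activators come first. Yap1 had log2 values of 11.24, 11.20 and 11.24 in the input arrays and 11.55, 11.48 and 11.59 in the pulldown arrays. Every pulldown array was above every input array, though the step was the smallest of the 10 genes, at 0.31 ± 0.036 (log2 difference ± SE) or 1.24-fold (limma adjusted p = 0.00017). Of all genes, 81.8% had a lower difference than Yap1. Its paralog Wwtr1, which encodes TAZ, stood at 11.54, 11.62 and 11.56 in the input and at 12.22, 12.21 and 12.23 in the pulldown. The pulldown arrays of Wwtr1 lay within a few hundredths of each other, and the difference was 0.65 ± 0.031 or 1.57-fold (limma adjusted p = 1.7e-06).

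LATS kinases are the last kinases of the relay and act directly on YAP and TAZ. Lats1 had log2 values of 11.35, 11.35 and 11.33 in the input and 11.84, 11.96 and 11.86 in the pulldown. One pulldown array was above the other two, and the gene was higher by 0.54 ± 0.037 (log2 difference ± SE, 1.46-fold, limma adjusted p = 9.9e-06). Lats2, itself known as a transcriptional target of YAP, stood at 11.78, 11.81 and 11.78 in the input and at 12.58, 12.57 and 12.59 in the pulldown. This was the second largest difference among the genes, at 0.79 ± 0.026 or 1.73-fold (limma adjusted p = 4.5e-07), and 95.9% of all genes had a lower one.

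TEAD factors are the DNA-binding partners through which YAP and TAZ act. Tead1 had log2 values of 11.94, 11.996 and 11.95 in the input and 12.59, 12.57 and 12.63 in the pulldown. It was higher by 0.63 ± 0.031 (log2 difference ± SE, 1.55-fold, limma adjusted p = 1.9e-06). Tead1 alone among the 10 genes had another probe set with its symbol, which read 11.80, 11.77 and 11.78 in the input and 12.41, 12.39 and 12.34 in the pulldown. That probe set gave a difference of 0.60 ± 0.030, near the first. Tead3 stood at 9.82, 9.85 and 9.92 in the input and at 10.38, 10.28 and 10.24 in the pulldown, and varied most within the groups. Its difference was 0.44 ± 0.046 or 1.35-fold (limma adjusted p = 0.00011).

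Merlin, the product of Nf2, is a membrane-linked scaffold that brings LATS to the cell cortex. Nf2 had log2 values of 9.73, 9.73 and 9.75 in the input and 10.34, 10.35 and 10.32 in the pulldown. Both groups were tight, and the difference was 0.60 ± 0.026 (log2 difference ± SE), or 1.52-fold (limma adjusted p = 1.1e-06).

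Angiomotins are junction and actin-linked scaffolds that hold YAP in the cytoplasm and promote its phosphorylation. Amot had log2 values of 10.88, 10.78 and 10.91 in the input and 11.39 in all 3 pulldown arrays, and was higher by 0.53 ± 0.039 (log2 difference ± SE, 1.45-fold, limma adjusted p = 1.4e-05). The input arrays carried nearly all of its spread. Amotl1 stood at 9.90, 9.89 and 9.89 in the input and at 10.91, 10.86 and 10.94 in the pulldown. At 1.01 ± 0.031 or 2.01-fold, it was the one gene of the 10 to reach a doubling (limma adjusted p = 3.4e-07), and 98.4% of all genes had a lower difference. Amotl2, another known YAP target, had log2 values of 11.52, 11.53 and 11.58 in the input and 12.11, 11.997 and 12.08 in the pulldown. It was higher by 0.52 ± 0.038 (1.43-fold, limma adjusted p = 1.4e-05), much as Amot was.

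**Figure D2:**
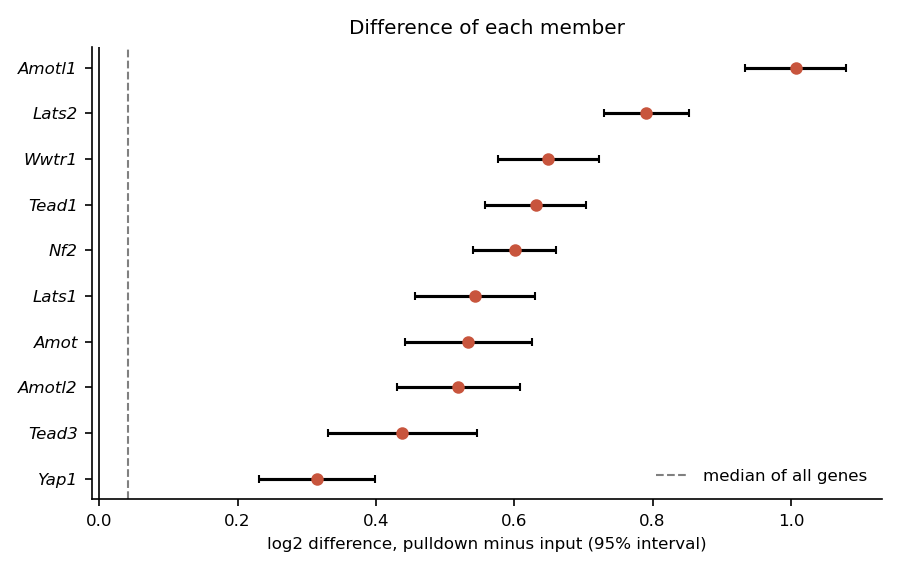
Log2 difference of each gene, pulldown minus input (x axis), with its 95% interval from the moderated SE, against a line at 0 and a dashed line at the median of all genes, 0.04. Amotl1 at 1.01 and Lats2 at 0.79 lie to the right of the other 8, and Yap1 at 0.31 lies lowest.

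Paralogs were compared by the log2 ratio of both genes within each array, which shows unequal change and not which RNA is more abundant. The ratio of Yap1 to Wwtr1 was lower in the pulldown arrays by 1.26-fold, with a change of -0.33 ± 0.045 (log2, ± SE, n = 3 and 3, exact permutation p = 0.10). The ratio of Lats1 to Lats2 changed by -0.25 ± 0.044 and that of Tead1 to Tead3 by 0.19 ± 0.065. In the angiomotins, the ratio of Amot to Amotl1 changed by -0.47 ± 0.047 and that of Amotl1 to Amotl2 by 0.49 ± 0.030. These 5 ratios did not overlap between the groups, which gives the smallest p that an exact 2-sided test of 3 against 3 arrays allows, 0.10, and 0.12 after adjustment over the 6 pairs. No pair can pass a threshold of 0.05 by this test. The 95% intervals of these changes, from the spread within groups and not adjusted over pairs, left out 0, such as -0.46 to -0.21 for Yap1 to Wwtr1, 0.40 to 0.57 for Amotl1 to Amotl2 and, nearest to 0, 0.01 to 0.37 for Tead1 to Tead3. The ratio of Amot to Amotl2 overlapped between the groups, with a change of 0.01 and a 95% interval of -0.12 to 0.15 (exact permutation p = 0.80).

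**Figure D3:**
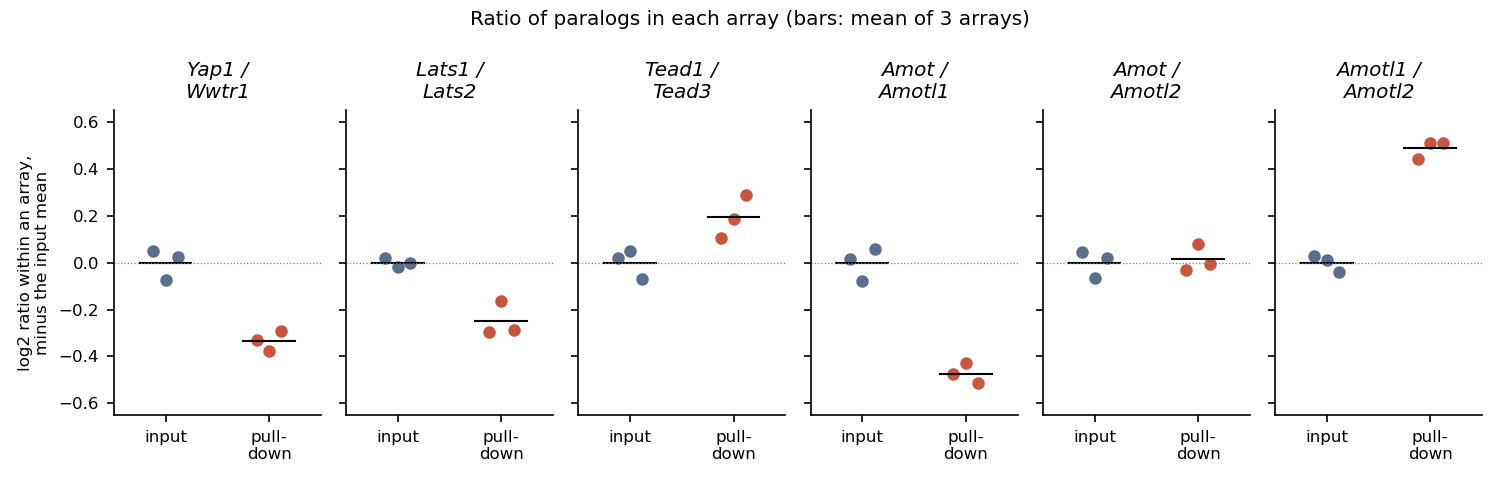
Log2 ratio of 2 paralogs within each array, minus the mean of the input arrays (y axis), for 3 input and 3 pulldown arrays (x axis) in each of 6 pairs. Points are arrays and bars the mean of 3. The pulldown points leave the input points in 5 pairs, furthest in the pairs with Amotl1, and mix with them for Amot and Amotl2.

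The rest of the pathway was read from 4 lists. Of 52 genes listed, 47 were measured by a single-symbol probe set, and 33 of these were higher, 3 lower and 11 did not pass. Their median difference was 0.36. Of the 47, 42 lay above the median level, where 46% of genes were higher and 26.8% lower. The counts of each list below are to be read against these shares. Under cyclic loess 29 of the 47 were higher and 6 lower. Calls over all 19938 genes also moved, to 5127 higher and 4565 lower from 6246 and 3459. In the core kinase cassette all 4 measured genes were higher. Mob1a, which encodes a LATS co-activator, was higher by 0.69 ± 0.026 (log2 difference ± SE), and Stk4, the kinase MST1, by 0.65 ± 0.026. The scaffold gene Sav1 was higher by 0.50 ± 0.049 and Mob1b, named after its value was seen to complete the 4, by 0.31 ± 0.038. Stk3, the paralog of Stk4, was not analysed here.

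Of 6 TEAD partners and cofactors, 4 were higher and 2 did not pass, with a median of 0.18. Vgll3, a vestigial-like TEAD cofactor, was higher by 0.73 ± 0.033, Tead4 by 0.57 ± 0.034 and Vgll4, which encodes a competitor of YAP for TEAD, by 0.21 ± 0.046. Tead2, named after its value was seen, completed the 4 at 0.15 ± 0.026. Under cyclic loess Vgll4 (0.11, limma adjusted p = 0.065) and Tead2 (0.04, limma adjusted p = 0.32) no longer passed, and Vgll2 (-0.05 before and -0.10 under cyclic loess) passed as lower.

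Of 21 measured upstream regulators, 15 were higher and 6 did not pass in limma's test (median 0.51). None was lower, also at an unadjusted p under 0.05 (0 of 21), while Taok3 passed as lower under cyclic loess, at -0.10 against 0.01 before. Fat4, a giant cadherin that acts upstream of the pathway, had log2 values of 10.75, 10.77 and 10.82 in the input and 11.82, 11.81 and 11.88 in the pulldown. The groups of Fat4 were more than a log2 unit apart on average, at 1.06 ± 0.034. Tnik, a kinase of the MAP4K family whose members can act beside MST kinases, was higher by 0.96 ± 0.052, and Frmd6, a FERM-domain protein of the cell cortex, by 0.92 ± 0.073.

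The last list holds STRIPAK, a phosphatase complex that opposes MST kinases, with factors of YAP degradation and other modulators. Among its 16 measured genes 10 passed as higher and 3 as lower (median 0.25). Striatin, Strn, a STRIPAK scaffold, was the most changed at 1.15 ± 0.027. It went from 10.00, 10.04 and 10.02 in the input to 11.19, 11.16 and 11.17 in the pulldown. The related Strn3 and Strn4 had smaller differences, at 0.38 ± 0.045 and 0.31 ± 0.039. Slmap, a subunit that docks onto phosphorylated MST kinases, was higher by 0.67 ± 0.027 and the ubiquitin ligase gene Fbxw11 by 0.47 ± 0.030.

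The lower genes were other subunits of the complex, Pdcd10 and Mob4, and the kinase gene Nuak2. Pdcd10 (CCM3) had log2 values of 9.71, 9.81 and 9.68 in the input and 9.13, 9.26 and 9.21 in the pulldown, a difference of -0.53 ± 0.048. Every pulldown array of Pdcd10 was below every input array, and the mean over its probe sets gave a smaller difference, -0.35. Mob4 stood at -0.22 ± 0.034. Nuak2, at -0.19 ± 0.056 (limma adjusted p = 0.025), did not pass when input array 1 or 3 or pulldown array 1 or 2 was left out, with adjusted p from 0.062 to 0.094.

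**Figure D4:**
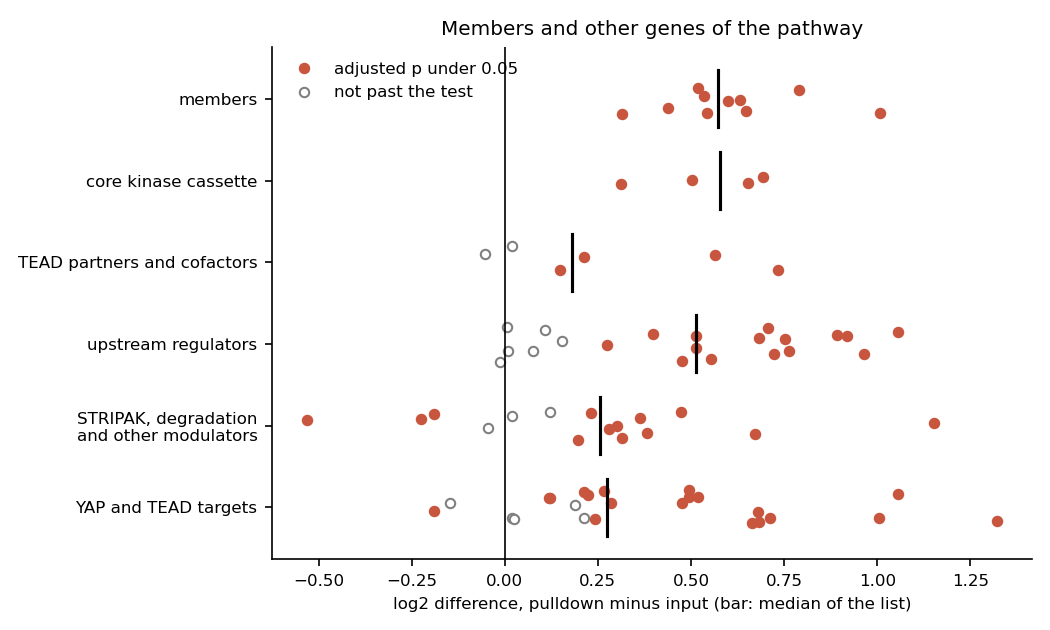
Log2 difference, pulldown minus input (x axis), of the 10 genes and of the measured genes of 4 other pathway lists and the target list (rows). Filled points passed the test, open points did not, and bars are list medians. All 10 points of the top row lie above 0, and the 3 lower genes of the pathway lists lie in the STRIPAK row.

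Genes commonly used as readouts of YAP and TEAD activity were set beside their regulators. A pulldown does not measure that activity, since both groups of arrays came from cells of the same kind and state. Among the 24 measured, 18 passed as higher and 1, Nuak2, as lower, with a median of 0.28 over all 24. Of these targets 23 lay above the median level, where 46% of genes were higher and 26.8% lower. Under cyclic loess 15 targets were higher and 2 lower, where 5127 of all 19938 genes were higher and 4565 lower. Dock5, an exchange factor for Rac, was higher by 1.32 ± 0.040, from 9.03, 8.99 and 9.04 in the input to 10.32, 10.28 and 10.42 in the pulldown. Arhgef17 was higher by 1.06 ± 0.036 and Fjx1, the counterpart of four-jointed, which in Drosophila phosphorylates cadherin domains, by 1.01 ± 0.046. The list shares Ptpn14, Ajuba and Nuak2 with the pathway lists.

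The matricellular genes Ccn1 and Ccn2 and the muscle ankyrin repeat gene Ankrd1, the most used of these readouts, were named after their values were seen. Ccn1 was higher by 0.21 ± 0.027 and Ankrd1 by 0.28 ± 0.035. Ccn2 had log2 values of 13.66, 13.66 and 13.63 in the input and 13.78, 13.77 and 13.75 in the pulldown. Its small step of 0.12 ± 0.027 passed (limma adjusted p = 0.0065) and did not under cyclic loess (0.05, limma adjusted p = 0.18). All 3 transcripts read bright in the input, between 12.84 and 13.65, where the highest input level of any gene was 13.76. Whether so bright a signal compresses differences was not tested.

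TEAD factors recognise the hexamer GGAATG, and some Hippo genes are known to be targets of the pathway themselves, so the hexamer was looked for in promoter windows from RefSeq (build GRCm38.p6, 250 bases before to 50 after a gene's start). Of the 10 genes, 9 had a window, all but Tead1, and 5 held the hexamer on either strand. The share was 16.6% over all 27025 RefSeq genes with a window, not limited to the genes measured on the arrays. Genes with several windows have more chances to hold it. Tead3 has 3, and Wwtr1, Lats2 and Nf2 have 2 each. The stretches below show the match in capitals for both co-activators, Amotl2 and Tead3, to place the hexamer in its context. The stretch of Yap1 lies on chr9:8004705-8004764 (minus strand) and that of Wwtr1 on chr3:57576014-57576073 (minus). That of Amotl2 lies on chr9:102717712-102717771 (plus, with the reverse complement CATTCC) and that of Tead3 on chr17:28350955-28351014 (minus).
Yap1: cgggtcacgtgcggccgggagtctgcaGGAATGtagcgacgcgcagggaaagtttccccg
Wwtr1: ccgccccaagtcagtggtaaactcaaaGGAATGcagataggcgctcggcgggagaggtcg
Amotl2: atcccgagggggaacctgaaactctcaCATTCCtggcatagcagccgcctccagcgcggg
Tead3: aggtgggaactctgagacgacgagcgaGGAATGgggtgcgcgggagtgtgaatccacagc
Counted from the start that defines 1 window, the match shown starts 141 bases before it in Yap1, 136 in Wwtr1, 65 in Amotl2 and 182 in Tead3. Both windows of Wwtr1 held the hexamer, and Tead3 held 3 further matches in its windows. Lats2 was the fifth gene, with a match just after the start that defines 1 of its 2 windows. The window of Amotl1, the gene with the largest difference, held no match. These arrays compare RNA from the same kind of cells and say nothing of promoter use.

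Genomic span, the length of a gene with its introns, is a coarse measure of size that the choice of genes did not use. Across 11630 protein-coding genes above the median level, the difference followed the span with a Spearman correlation of 0.48, and across the 10 genes it was 0.58. Genes measured on the same arrays are not independent, so no p is given. The 3 genes over 100 kb were Tead1 (227 kb), Amotl1 (121 kb) and Wwtr1 (120 kb). Coding genes of that size had a median difference of 0.42 with quartiles of 0.12 and 0.72, and Amotl1 lay above the upper quartile while Tead1 and Wwtr1 lay between the median and it. Among genes of 30 to 100 kb (median 0.27, quartiles 0.03 and 0.55), Lats2 and Nf2 lay above the upper quartile. Lats1, Amot and Yap1 lay between the median and the upper quartile of that class. Tead3 (19.1 kb) and Amotl2 (16.3 kb) belonged to the class of 10 to 30 kb, where the median was 0.05 and the quartiles -0.20 and 0.28, and both lay above the upper quartile. All 10 differences were above the median of their size class, also under cyclic loess with the class medians recomputed, a check added after the data were seen. For Yap1 the margin was within its error, since its 95% interval of 0.23 to 0.40 holds the class median of 0.27.

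**Figure D5:**
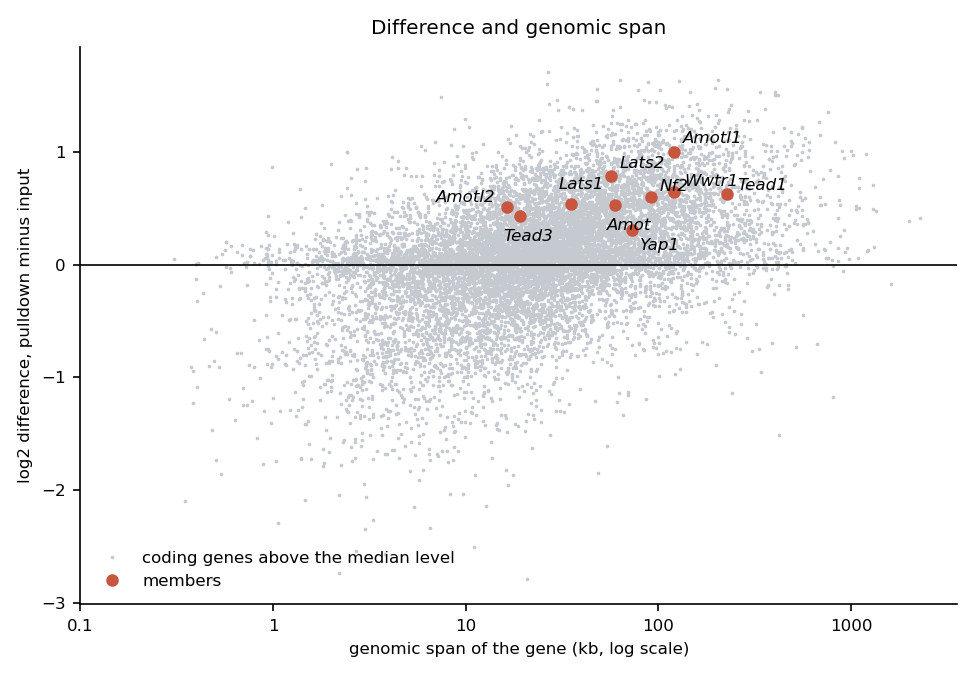
Log2 difference, pulldown minus input (y axis), against the genomic span of the gene in kb (x axis, log scale). Grey points are 11630 protein-coding genes above the median level and coloured points the 10 Hippo genes. The cloud rises to the right, and the 10 genes, from Amotl2 at 16.3 kb to Tead1 at 227 kb, lie above the median of their size class. Yap1 lies close to that median.

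Nearest profiles were sought among genes above the median of all probe sets, by the root mean square distance between profiles centred on their own mean. Over the 6 arrays Gfm1, Stom and Sft2d2 lay nearest to Yap1, at distances of 0.013 to 0.015 (log2 units). They encode a mitochondrial elongation factor, the membrane protein stomatin and a vesicle transport protein, with differences of 0.32, 0.32 and 0.34. Nearest to Wwtr1 were Sik2, a salt-inducible kinase, Herc4, a ubiquitin ligase, and Chsy1, a chondroitin synthase, at 0.014 to 0.015 and with differences of 0.63, 0.64 and 0.63. Likeness over 6 arrays in 2 groups mostly reflects a similar step between the groups.

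Array medians lay between 6.53 and 6.54, and Pearson correlations over all probe sets were at least 0.998 within a group and 0.982 to 0.983 between groups, so no array stood apart. Of 7 podocyte markers measured, 4 were above the median of all probe sets, among them Wt1 at 9.57 and Synpo at 8.29 in the input, while Nphs1 (6.30), Podxl (6.04) and Tcf21 (5.91) were below it. Levels of the other cells' markers were mixed within each list in the input. Mesangial Acta2 (13.57) and Pdgfrb (11.45) were bright, while Des (6.48) and Itga8 (5.21) were below the median of 6.54. Endothelial Ehd3 stood at 10.34 and the other 4 endothelial markers below the median, from Kdr (5.34) to Cdh5 (5.74). Tubular markers ranged from Umod (5.55) to Lrp2 (9.36), and immune markers from Adgre1 (5.15) to Cd68 (7.38). Against 31.3% higher and 17.3% lower over all genes, 5 of 7 podocyte markers passed as higher. Of the other cells' markers, 1 of 4 mesangial, 2 of 5 endothelial and 2 of 4 tubular ones were higher, the tubular calls being lost under cyclic loess (0 of 4). Of the endothelial and immune markers 1 each was lower, Emcn (-0.26) and Cd68 (-0.24), and 0 of 4 immune ones were higher (limma, also 0 at an unadjusted p under 0.05). The part of these cells in the results was not tested. Whether replicates were separate cultures is not stated in the labels, and the p-values therefore cover the spread among these samples, possibly a technical one.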

How the data were processed

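Each array's deposited column gives a log2 value per probe set. Per the submitters' processing notes the tools were RMA and limma, with versions not given in the sources used here. The first commonly equalises the arrays' distributions, so differences are relative to other RNAs. The table held 35556 probe sets, of which 21789 had 1 symbol, 1621 several and 12146 none in the platform's annotation. The brightest single-symbol probe set over the 6 arrays stood for each of 19938 genes, and 19856 matched the RefSeq gene table (GRCm38.p6) by Entrez identifier and took their current symbol and span from it. Pulldown minus input was tested with limma 3.58.1 in R 4.3.3 (moderated, 2-sided, no covariates, all 19938 genes, Benjamini-Hochberg threshold 0.05). Paralog ratios were tested by exact permutation.

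The members and lists were chosen with earlier results of these data known. Besides the 10 genes, each list gave up to 3 called genes with the largest positive and up to 3 with the largest negative difference. The 3 nearest profiles of Yap1 and of Wwtr1, among genes above the median of all probe sets, were named too. Genes named outside this rule are marked or given with a limit they touch. Listed genes without a single-symbol probe set were not analysed here. Precision is limited by the number of arrays. Alternatives were a replicate block, a variance trend, cyclic loess, a filter on dim genes, other uses of a gene's probe sets and leaving out each array. Figures were drawn with matplotlib 3.10.9.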

Additional observations from a re-analysis of the deposited data

How the results depend on the processing

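All 10 Hippo genes stayed higher and past the test under each of the alternatives run, including the fits without 1 array. Cyclic loess lowered their differences, from 0.31 to 0.21 for Yap1 and from 1.01 to 0.90 for Amotl1. Under it 29 other pathway genes were higher against 33 before, and 15 targets against 18. Over all 19938 genes 5127 were higher against 6246 before, and 4565 lower against 3459. Cyclic loess also gave 6 lower genes of the other pathway lists, with Vgll2, Taok3 and Stk25 added. Of these, Taok3 and Stk25 had been at 0.01 and 0.02. It gave 2 lower targets (Nuak2 and Birc5), and 2 targets were also lower among genes above the median level only. Leaving out 1 array gave 0 to 1 lower target, with 0 without input array 1 or pulldown array 1 or 2. Nuak2 did not pass in these fits nor without input array 3, where Birc5 was the 1 lower target (-0.20). The ratio of Amot to Amotl2 changed sign without input array 2 (-0.018) or pulldown array 2 (-0.018), and ranged from -0.018 to 0.038 without 1 array. Samples of the same replicate number did not deviate together (correlations of -0.052 to 0.041 for 3 pairs), so the numbers were taken as names. With the replicate block all 10 genes stayed higher, and 6247 genes were called higher and 3467 lower against 6246 and 3459. The causes of these shifts were not tested.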
